A study of Rattus norvegicus with 8 samples.

Results

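Genes whose products copy DNA and carry a cell through S phase were compared between sorted oligodendrocyte-lineage cells of the rat. The list held 48 genes of DNA replication and S phase, chosen by name with earlier results of these data known. Of these, 44 had at least 1 probe set that the platform's annotation gives to that gene alone, out of 14217 genes measured in this way. Cdc6, Cdc7, Gins2 and Rrm2 had none and are not analysed here.

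Cells were sorted from rat whole brain at postnatal day 7. The A2B5+ cells, sorted on a ganglioside epitope that glial progenitors and some neurons carry, are called oligodendrocyte progenitors in the labels. The GalC+ cells, sorted on galactocerebroside, a lipid of oligodendrocytes and myelin, are called oligodendrocytes. Each population had 4 biological replicates, each a pooled litter of 10 pups and each hybridised to 1 Affymetrix array, so that differences between pups of a litter cannot be seen. Strain and sex are not given in the sources used here, and no treatment or genetic change is named. Deposited values are ratios: the signal of a probe set divided by the median that it has among the 8 arrays, so that 1 is that median. Such ratios show how a gene differs between arrays but not how brightly it was expressed, so no gene's level is set against another's.

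DNA is copied once per cell cycle. Origins are first licensed: the origin recognition complex, Cdc6 and Cdt1 load the ring-shaped Mcm2 to Mcm7 helicase onto DNA, and geminin later blocks Cdt1 so that no origin fires again. Cdc45 and the GINS complex then turn the helicase on, primase and the polymerases copy the strands, the clamp PCNA and its loader hold the polymerases in place, and E2F factors switch many of these genes on as a cell enters S phase. Progenitors of oligodendrocytes divide, whereas oligodendrocytes that make myelin have left the cell cycle.

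Each measured step of this process had genes that were lower in GalC+ cells, though the clamp Pcna itself missed the threshold. Of the 44 measured members, 35 fell and 0 rose (limma, adjusted p under 0.05), which is 79.5% of them, against 17.5% of all genes called lower and 18.2% called higher. Of the members, 27 were called and lower by at least 0.5 on the log2 scale, as were 9.95% of all genes. At an unadjusted p under 0.05 there were also 0 higher members in limma, against 22.7% of all genes. Uhrf1, which keeps DNA methylation in place on new strands, fell most, at 2.43-fold, followed by the helicase activator Cdc45 at 2.14-fold, the licensing factor Cdt1 at 2.09-fold and the topoisomerase Top2a at 2.07-fold. The median log2 ratio of GalC+ to A2B5+ was -0.62 over the members, which is 1.53-fold lower, and 0.04 over all genes. The 4 genes just named fell by 1 or more on the log2 scale, 23 fell by 0.5 to 1, and 8 by under 0.5. In these bulk samples, fewer cycling cells and less RNA per cell cannot be told apart.

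**Figure D1:**
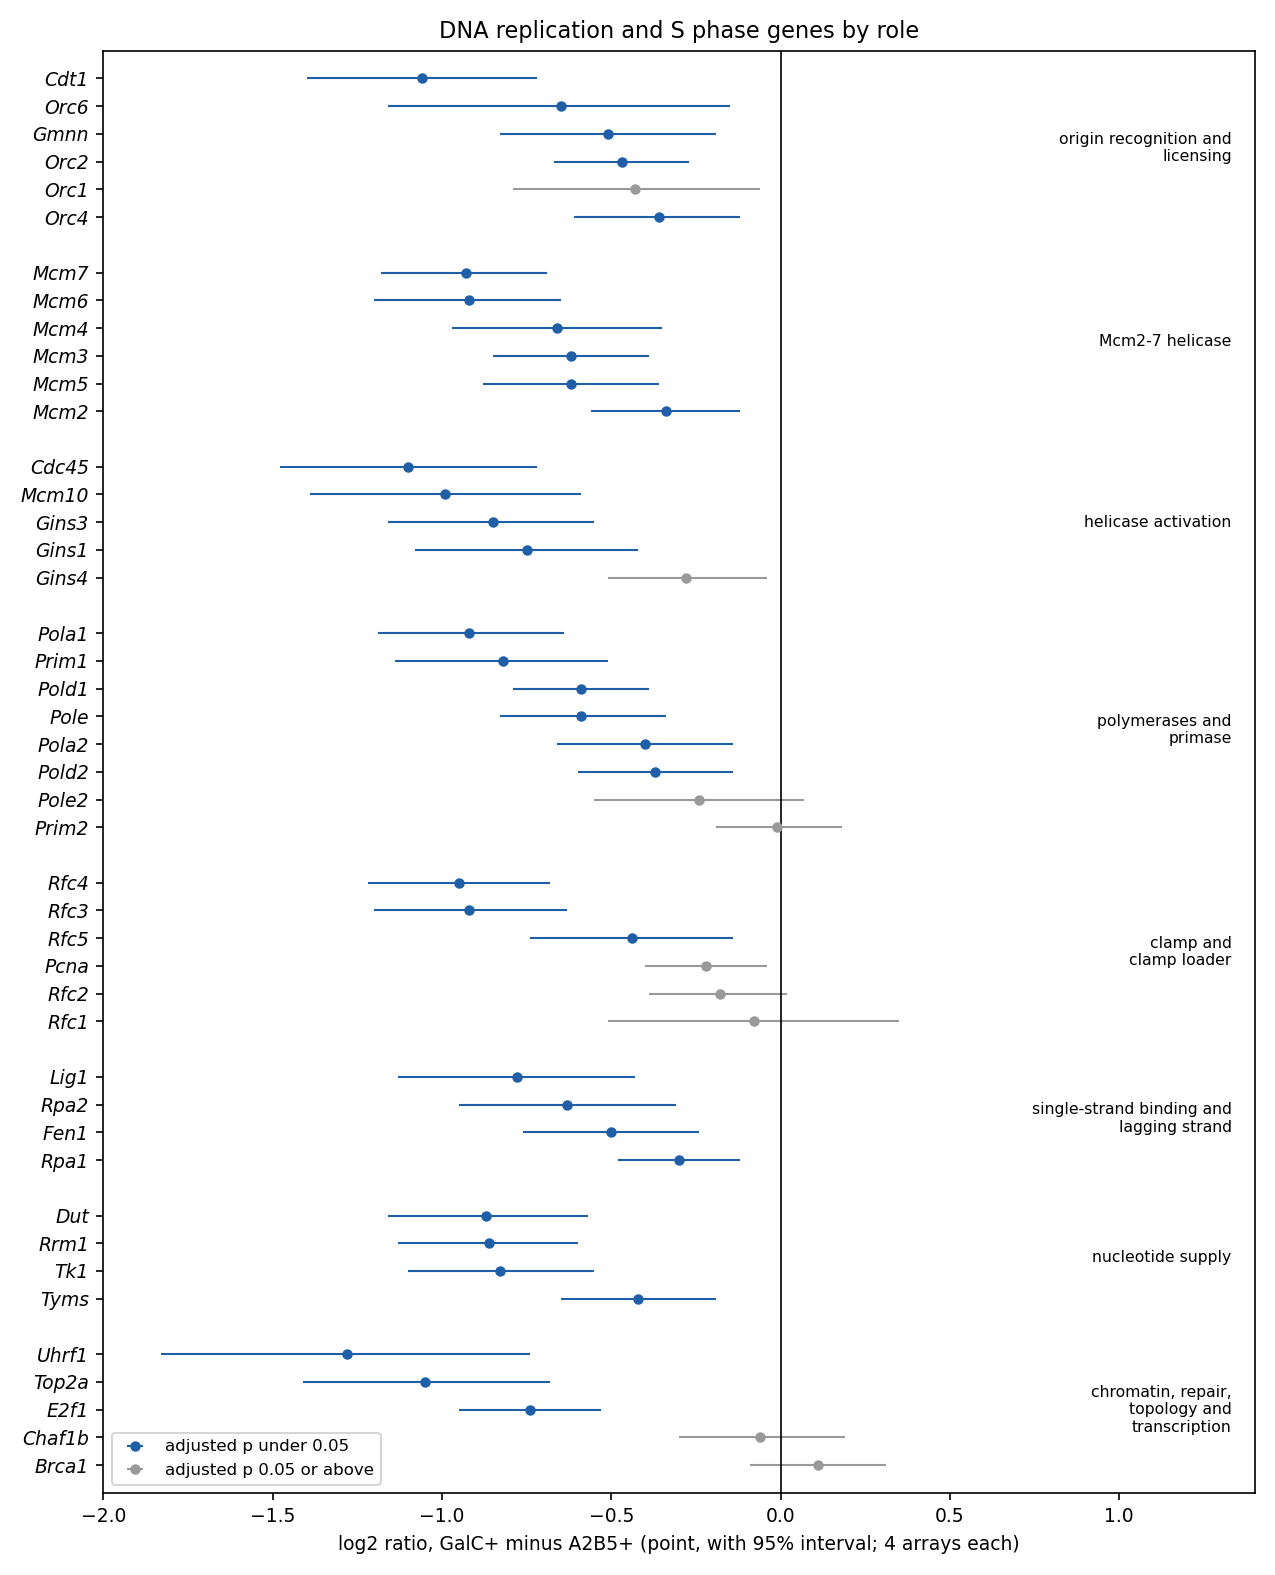
Log2 ratio of GalC+ to A2B5+ (x axis) for the 44 measured members (y axis, grouped by role), as points with 95% intervals from limma, 4 arrays in each population. Blue points have an adjusted p under 0.05; 43 of the 44 points lie left of 0, and Brca1 lies right of it.

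The arrays separated the populations for most of these genes. In 36 members (81.8%) all 4 GalC+ values lay below all 4 A2B5+ values, as they did in 17.7% of all genes. These included 3 members that missed the test, Orc1, Gins4 and Pcna, and left out 2 that passed it, Orc4 and Orc6. In 0 members did all GalC+ values lie above, as in 18.5% of all genes. Over the members the median ratio was 1.17, 1.51, 1.09 and 1.25 on A2B5+ replicates 1 to 4, and 0.819, 0.865, 0.776 and 0.847 on GalC+ replicates 1 to 4. A2B5+ replicate 2 stood highest. It gave the top A2B5+ value in 39 of 44 members, against 29.4% of all genes. Without it 30 members fell, and the median log2 ratio was -0.53. The same 30 was reached without A2B5+ replicate 4. A2B5+ replicate 3 gave the lowest A2B5+ value in 26 members, and the GalC+ arrays were more even.

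**Figure D2:**
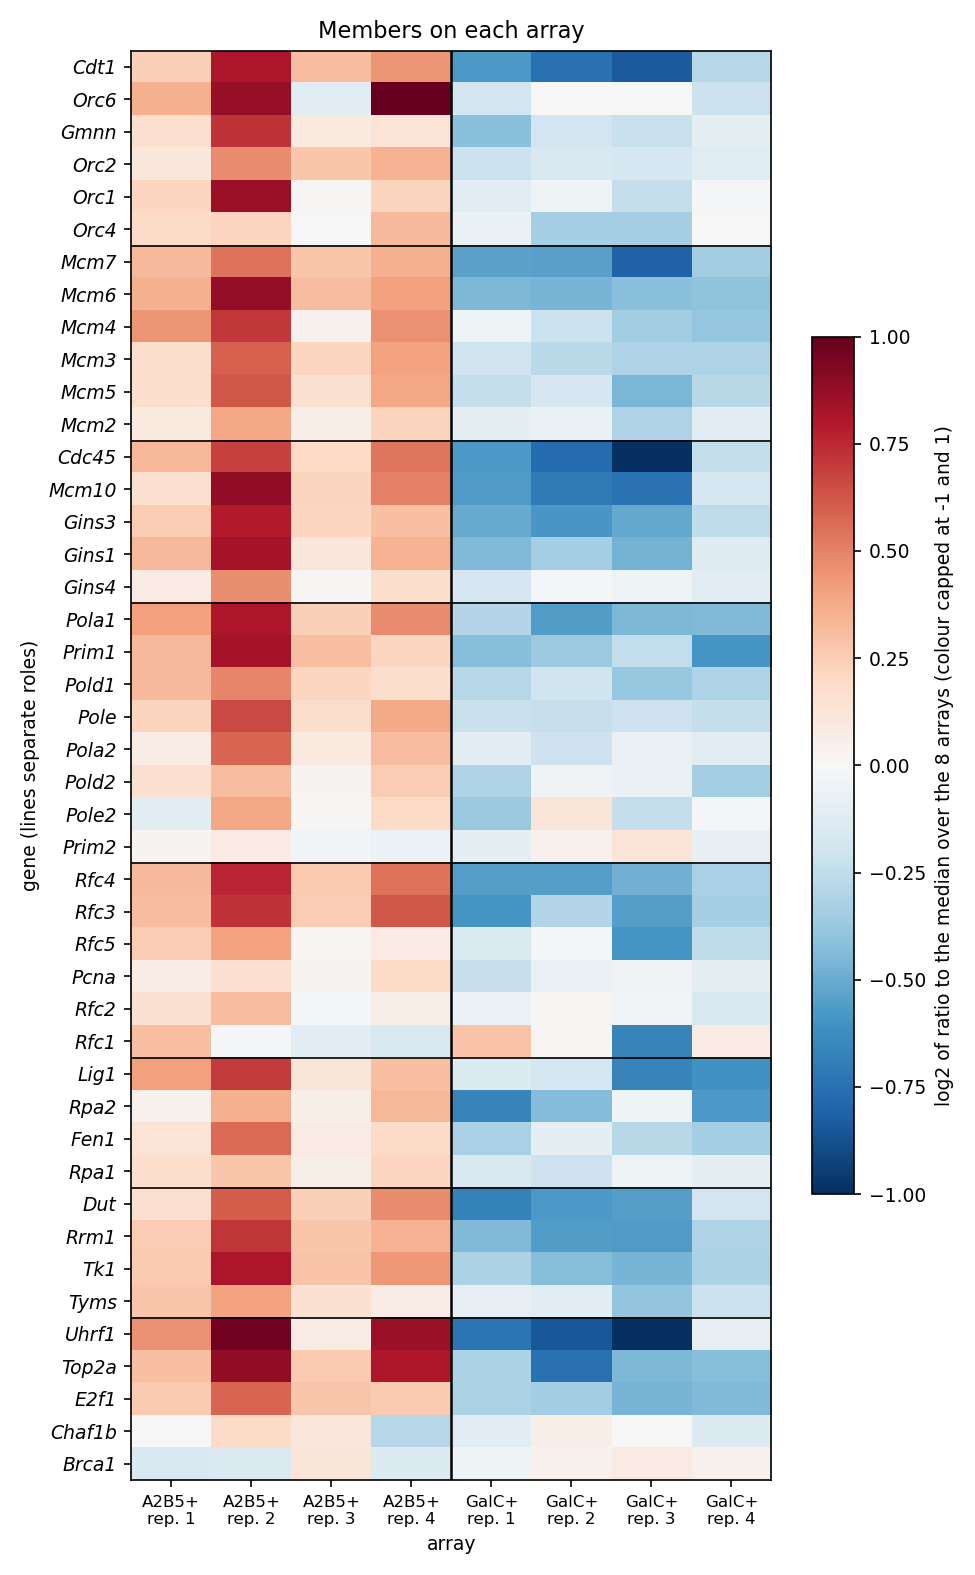
Log2 of the ratio to the median over the 8 arrays (colour, capped at -1 and 1) for each measured member (rows, lines between roles) on each array (columns). Red cells fill the A2B5+ side and blue cells the GalC+ side, with the deepest red mostly in A2B5+ replicate 2; in 8 members, among them Prim2, Rfc1, Chaf1b, Brca1 and Pole2, the populations overlap.

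Markers of several cell types moved with the populations too, where 17.5% of all genes were called lower and 18.2% higher. In GalC+ all 11 measured markers of myelinating oligodendrocytes rose, with array medians of 0.10 to 0.18 in A2B5+ and 1.78 to 3.75 in GalC+. Neuron markers fell in 10 of 15 cases and rose in 1 (array medians 1.30 to 1.57 and 0.313 to 0.709), and markers of neuronal intermediate progenitors fell in 4 of 5 (1.04 to 1.39 and 0.696 to 1.01). Oligodendrocyte progenitor markers fell in 5 of 10 (1.02 to 1.21 and 0.83 to 0.934), Pdgfra among them (-1.26 ± 0.23 SE, limma adjusted p = 0.00208). The log2 ratios of these 10 ran from -2.35 to 0.67. All GalC+ values lay below all A2B5+ values in 6 of them and above in 1 (17.7% and 18.5% of all genes). Macrophage and microglia markers rose in 12 of 14 (0.524 to 0.883 and 1.12 to 1.56) and mural cell markers in 7 of 8 (0.478 to 0.754 and 1.25 to 2.01). Astrocyte and radial glia markers fell in 2 of 10, near the share over all genes, and their array medians overlapped (0.896 to 1.19 and 0.765 to 1.19). Of the endothelial markers 0 of 7 passed the test (limma, adjusted p under 0.05, and also 0 at an unadjusted p under 0.05). A2B5+ replicate 2, highest for the replication genes, also had the highest neuron and intermediate progenitor medians of its population and the lowest myelin, mural, astrocyte and endothelial medians. Its endothelial median was 0.525, against 0.97 to 1.16 on the other A2B5+ arrays and 0.476 to 1.08 in GalC+. Whether any marker is at 0 cannot be seen, because every value is a ratio to a median, and the part of these cells in the result was not tested.

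**Figure D3:**
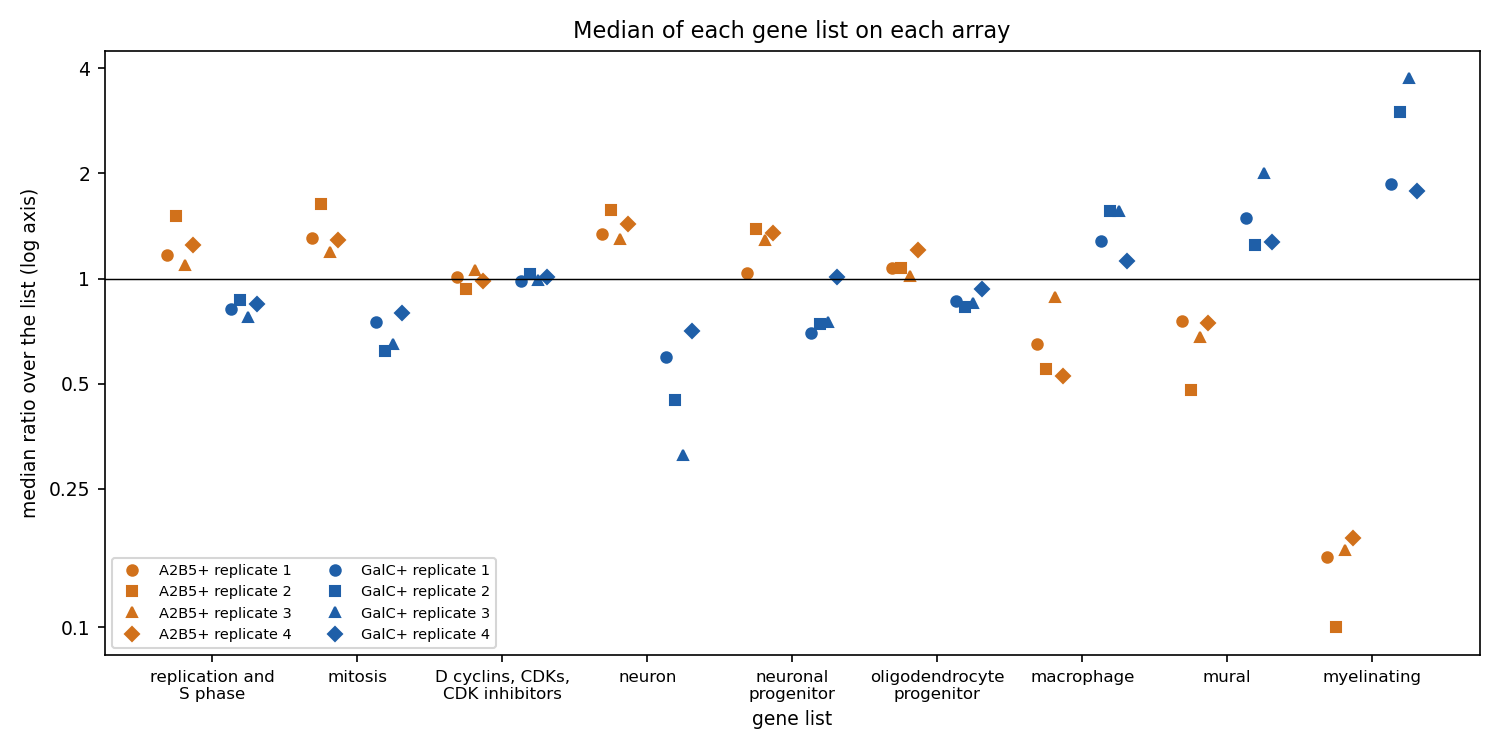
Median ratio over each gene list (y axis, log scale) on each of the 8 arrays, orange for A2B5+ and blue for GalC+, with 1 symbol shape per replicate number. The replication and mitosis lists lie above 1 on every A2B5+ array and below 1 on every GalC+ array, as do the neuron and oligodendrocyte progenitor lists. The myelinating, macrophage and mural lists lie the other way round on every array.

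The promoters of the members were read for the letters that E2F factors bind, since so many members moved together. RefSeq windows of the rat (assembly GRCr8), from 250 bases before a transcript start to 50 after it, were found for 41 of the 48 genes. The E2F search took TTTGGCGC, TTTGCCGC, TTTCGCGC and TTTCCCGC on either strand, and 17 of 41 genes (41.5%) held a match. The share was 2.94% of 18999 protein-coding genes and 2.14% of all 33469 windows. The CHR element of mitotic genes (TTTGAA or TTCGAA) showed the opposite layout. It was found in 9 of 41 replication genes (22%), 23 of 31 mitosis genes (74.2%) and 19.6% of protein-coding genes, whereas 1 of the 31 mitosis genes held E2F letters. CCAAT, the site of NF-Y, was common everywhere, in 61.0% of the replication genes, 74.2% of the mitosis genes and 39.8% of protein-coding genes. E2F letters were not particular to the members. Replication and S phase genes outside the 48, listed further below, held them in 27 of 98 genes with a window (27.6%). Those genes held CHR letters in 24.5% and CCAAT in 42.9%. Among measured members with a window, the 17 with E2F letters had a median log2 ratio of -0.75 and 16 of them fell. The 22 without had a median of -0.49 and 16 fell. The split was alike for the other motifs: with CCAAT the median was -0.70 (21 of 24 fell) and without it -0.44 (11 of 15), and with CHR letters it was -0.87 (7 of 8) and without them -0.59 (25 of 31). These are descriptions of letters, with no test. The 200 bases before the start are shown for the 5 members with the largest falls among those whose E2F letters lie there, with those letters in capitals, and for Top2a, with its CHR letters in capitals. The most upstream start was used, and all are written 5′ to 3′ on the strand of the gene.
Mcm7: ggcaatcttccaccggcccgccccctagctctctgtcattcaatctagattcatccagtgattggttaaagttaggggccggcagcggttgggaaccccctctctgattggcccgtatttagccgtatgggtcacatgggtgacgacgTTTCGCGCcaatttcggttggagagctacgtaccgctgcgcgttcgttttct
Mcm6: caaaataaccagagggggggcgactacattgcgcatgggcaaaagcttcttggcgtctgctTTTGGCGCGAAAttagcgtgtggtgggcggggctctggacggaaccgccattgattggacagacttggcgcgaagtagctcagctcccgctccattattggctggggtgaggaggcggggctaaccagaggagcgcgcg
Pola1: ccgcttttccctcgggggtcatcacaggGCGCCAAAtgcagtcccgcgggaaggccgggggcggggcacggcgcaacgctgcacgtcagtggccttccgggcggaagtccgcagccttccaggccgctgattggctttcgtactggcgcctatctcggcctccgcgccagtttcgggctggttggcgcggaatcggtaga
Gins3: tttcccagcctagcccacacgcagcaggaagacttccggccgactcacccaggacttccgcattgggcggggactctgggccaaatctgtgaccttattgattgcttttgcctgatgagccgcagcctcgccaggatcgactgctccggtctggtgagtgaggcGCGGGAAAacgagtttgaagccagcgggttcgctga
Gins1: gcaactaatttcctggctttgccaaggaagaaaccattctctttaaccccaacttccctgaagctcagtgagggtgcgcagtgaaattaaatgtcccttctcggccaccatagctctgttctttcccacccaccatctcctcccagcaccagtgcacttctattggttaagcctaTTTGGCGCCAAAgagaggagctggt
Top2a: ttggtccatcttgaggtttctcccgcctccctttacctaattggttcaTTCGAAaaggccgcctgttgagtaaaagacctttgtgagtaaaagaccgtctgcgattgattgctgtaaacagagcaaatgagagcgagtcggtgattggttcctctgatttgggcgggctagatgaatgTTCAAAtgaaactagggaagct
These lie at chr12:22163179-22163378 (minus strand), chr13:42404353-42404552 (minus), chrX:62342356-62342555 (minus), chr19:9434680-9434879 (minus), chr3:160184720-160184919 (plus) and chr10:84473094-84473293 (minus). In Mcm7 the match begins 52 bases before the start and shares its last letter with a CCAAT. In Mcm6 and Gins1 a pair of matches on opposite strands overlap each other, beginning 139 and 135 bases before the start in Mcm6 and 25 and 21 in Gins1. The match of Pola1 begins 172 bases before the start and that of Gins3 36 bases before it. Top2a has CHR letters 152 and 22 bases before its start.

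**Figure D4:**
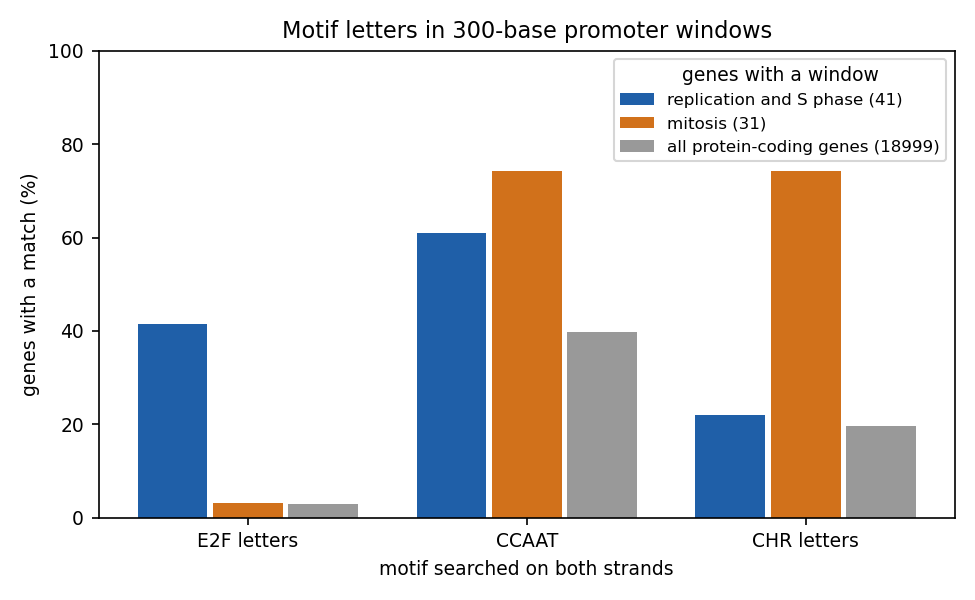
Share of genes (y axis, %) whose 300-base promoter windows hold the E2F letters, CCAAT or the CHR letters, for 41 replication and S phase genes, 31 mitosis genes and 18999 protein-coding genes. E2F letters reach 41.5% in the replication genes against 3.23% in the mitosis genes, and CHR letters 74.2% in the mitosis genes against 22%.

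Licensing genes fell in 5 of 6 cases, and in 3 of 6 without A2B5+ replicate 1, 2 or 4 or without GalC+ replicate 1, 2 or 3. Cdt1, the loader of the helicase, read 1.18, 1.75, 1.24 and 1.36 on A2B5+ replicates 1 to 4 and 0.673, 0.596, 0.563 and 0.819 on GalC+ replicates 1 to 4. Every GalC+ value lay well below every A2B5+ value (log2 ratio -1.06 ± 0.15 SE, limma adjusted p = 6.48e-04). Its inhibitor geminin (Gmnn) read 1.12, 1.65, 1.07 and 1.1 in A2B5+ and 0.75, 0.878, 0.858 and 0.933 in GalC+, without overlap but with 1 high A2B5+ array, replicate 2. Geminin passed the test as well (-0.51 ± 0.14 SE, adjusted p = 0.02). Cdt1 minus Gmnn was -0.55 ± 0.13 SE, which reached the smallest p that 4 against 4 arrays allow (exact permutation test, two-sided, p = 0.0286) and missed the threshold after adjustment over the 4 gene pairs compared (0.0571). At that smallest p the adjusted value depends on how many other pairs reach it, so the miss does not bear on this pair alone. Geminin's second probe set showed -0.11, and without GalC+ replicate 1 the call was lost (adjusted p = 0.0548).

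Of 4 subunits of the origin recognition complex, which marks the places where copying starts, 3 fell. The largest subunit Orc1 read 1.16, 1.81, 1.01 and 1.17 in A2B5+ and 0.927, 0.972, 0.85 and 0.994 in GalC+. The populations did not overlap, but A2B5+ replicate 2 was far above the rest, the log2 ratio was -0.25 without it, and the test was missed (-0.43 ± 0.16 SE, adjusted p = 0.0683; 0.042 with quantile normalization; 0.0268 with the replicate number as a block, a fit that called 37 members and 19.7% of all genes lower). Orc2, a core subunit, read 1.08, 1.39, 1.21 and 1.27 in A2B5+ and 0.861, 0.901, 0.885 and 0.918 in GalC+. It fell with little spread among the GalC+ arrays (-0.47 ± 0.09 SE, adjusted p = 0.00303). Orc1 and Orc2 differed by 0.04 ± 0.15 SE (exact permutation p = 0.8, adjusted 0.857). Orc4 read 1.14, 1.16, 0.996 and 1.25 in A2B5+ and 0.954, 0.794, 0.794 and 1.0 in GalC+, where A2B5+ replicate 3 falls within the GalC+ range (-0.36 ± 0.11 SE, adjusted p = 0.0274). Its other probe set showed 0.16, the mean of both was -0.10 (adjusted p = 0.424), and with 1 array omitted the call held only without A2B5+ replicate 3, GalC+ replicate 1 or GalC+ replicate 4. Orc1 minus Orc4 was -0.06 ± 0.18 SE (exact permutation p = 0.857), and -0.33 with the mean of the probe sets. Orc6 read 1.28, 1.83, 0.924 and 2.12 in A2B5+ and 0.874, 0.999, 1.0 and 0.862 in GalC+, with A2B5+ replicate 3 again among the GalC+ values and the other A2B5+ arrays above them. It passed narrowly (-0.65 ± 0.23 SE, adjusted p = 0.0472), and of the fits without 1 array it passed only in the one without A2B5+ replicate 3. Its call was also lost with quantile normalization (0.0613), the trended prior (0.109) and the spread of the gene alone (0.124). The other probe sets of Orc6 showed -0.42 and -0.36, and the mean of its probe sets passed at -0.48 (limma adjusted p = 0.0252).

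All 6 subunits of the Mcm2 to Mcm7 helicase, the motor that unwinds DNA, fell. Mcm7 read 1.25, 1.46, 1.21 and 1.28 in A2B5+ and 0.69, 0.687, 0.571 and 0.786 in GalC+. Its populations were far apart, at 1.91-fold (-0.93 ± 0.11 SE, adjusted p = 2.35e-04). Mcm6 read 1.28, 1.84, 1.24 and 1.33 in A2B5+ and 0.734, 0.725, 0.75 and 0.758 in GalC+, with GalC+ arrays nearly equal and A2B5+ replicate 2 highest (-0.92 ± 0.12 SE, adjusted p = 4.69e-04). Mcm4 (-0.66), Mcm5 (-0.62) and Mcm3 (-0.62) lay close together, and none of the 6 overlapped between populations. Mcm2 fell least (-0.34 ± 0.10 SE, adjusted p = 0.0221), and its call was lost without A2B5+ replicate 2, A2B5+ replicate 4 or GalC+ replicate 3 (highest adjusted p = 0.0586).

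Of the factors that switch the loaded helicase on, 4 of 5 fell, with a median of -0.85. Cdc45, which rides with the helicase, read 1.26, 1.61, 1.15 and 1.45 in A2B5+ and 0.673, 0.587, 0.482 and 0.847 in GalC+. GalC+ replicate 3 was lowest and no arrays overlapped (-1.10 ± 0.17 SE, adjusted p = 9.70e-04). Of its 4 probe sets, 3 gave -1.07 to -1.10, and the remaining one 0.07 (mean of all 4, -0.80). Mcm10, which helps start unwinding, read 1.12, 1.85, 1.17 and 1.42 in A2B5+ and 0.677, 0.614, 0.601 and 0.884 in GalC+. It fell without overlap (-0.99 ± 0.18 SE, adjusted p = 0.00203), with -0.44 in its other probe set. The GINS subunits Gins3 (-0.85) and Gins1 (-0.75) fell. Gins4 read 1.06, 1.38, 1.01 and 1.13 in A2B5+ and 0.889, 0.985, 0.965 and 0.924 in GalC+, apart in every array yet short of the threshold (-0.28 ± 0.10 SE, adjusted p = 0.0658; 0.0291 with quantile normalization).

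Of 8 polymerase and primase genes, 6 fell. Pola1, the catalytic subunit of the polymerase that starts each strand, read 1.33, 1.75, 1.18 and 1.39 in A2B5+ and 0.817, 0.678, 0.733 and 0.738 in GalC+. It had no overlap (-0.92 ± 0.12 SE, adjusted p = 4.49e-04). Prim1, the catalytic primase subunit that lays the RNA primer, read 1.25, 1.78, 1.23 and 1.16 in A2B5+ and 0.745, 0.777, 0.843 and 0.665 in GalC+, again apart, with A2B5+ replicate 2 high (-0.82 ± 0.14 SE, adjusted p = 0.0016). Its partner Prim2, the large primase subunit, read 1.02, 1.06, 0.983 and 0.962 in A2B5+ and 0.941, 1.03, 1.1 and 0.944 in GalC+. The Prim2 values of both populations were mixed (-0.01 ± 0.08 SE, adjusted p = 0.962, 95% interval -0.19 to 0.18). The catalytic subunits of the leading and lagging strand polymerases, Pole (-0.59) and Pold1 (-0.59), fell by nearly the same amount. Calls of the accessory subunits depended on single arrays. Pola2, the partner of Pola1 (-0.40) lost its call without A2B5+ replicate 4 or GalC+ replicate 2 (highest adjusted p = 0.0607), and Pold2, the partner of Pold1 (-0.37), lost it without A2B5+ replicate 2 or A2B5+ replicate 4 (highest 0.0509). Pole2, the partner of Pole, read 0.929, 1.31, 1.01 and 1.15 in A2B5+ and 0.775, 1.09, 0.849 and 0.994 in GalC+, with overlap, and did not pass (-0.24 ± 0.14 SE, adjusted p = 0.202; 0.0479 with the replicate block).

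The clamp and its loader were split, with 3 of 6 lower. Rfc4, a small subunit of the loader, read 1.25, 1.7, 1.2 and 1.46 in A2B5+ and 0.682, 0.684, 0.716 and 0.8 in GalC+. Rfc3, another small subunit, read 1.24, 1.65, 1.19 and 1.54 in A2B5+ and 0.665, 0.815, 0.683 and 0.794 in GalC+. Neither gene overlapped between populations, and both fell by close to 1 on the log2 scale (Rfc4 -0.95 ± 0.12 SE, adjusted p = 3.35e-04; Rfc3 -0.92 ± 0.13 SE, adjusted p = 5.43e-04). Rfc5 fell less (-0.44, adjusted p = 0.0279), and its call was lost without A2B5+ replicate 1, A2B5+ replicate 2 or GalC+ replicate 3 (highest adjusted p = 0.0776). Rfc1, the large subunit, read 1.23, 0.991, 0.93 and 0.898 in A2B5+ and 1.22, 1.01, 0.631 and 1.06 in GalC+. Its arrays were mixed, with GalC+ replicate 3 lowest, and all 3 of its probe sets lay between -0.08 and 0.05 (95% interval of the first -0.51 to 0.35, adjusted p = 0.773). Rfc2 read 1.11, 1.24, 0.991 and 1.04 in A2B5+ and 0.958, 1.01, 0.981 and 0.893 in GalC+, with a small overlap (-0.18 ± 0.09 SE, adjusted p = 0.146). The clamp Pcna, much used as a mark of S phase, read 1.05, 1.12, 1.02 and 1.14 in A2B5+ and 0.853, 0.954, 0.976 and 0.935 in GalC+. Its populations did not overlap, but the step between them was small, at 1.16-fold, and just missed the threshold (-0.22 ± 0.08 SE, adjusted p = 0.0566, 95% interval -0.40 to -0.04). Pcna passed in 6 alternative fits on all 8 arrays (adjusted p 0.0266 with quantile normalization to 0.0447 with array weights) and in 0 of the 8 fits without 1 array (0.0541 to 0.146).

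Genes that protect single-stranded DNA and join the pieces of the lagging strand fell in all 4 cases. Lig1, the ligase that seals the pieces, read 1.33, 1.62, 1.09 and 1.23 in A2B5+ and 0.909, 0.883, 0.63 and 0.659 in GalC+. GalC+ replicates 3 and 4 were lowest, and the populations stayed apart (-0.78 ± 0.16 SE, adjusted p = 0.00391; its other probe set -0.70). Rpa2, a subunit of the single-strand binding complex, read 1.03, 1.28, 1.04 and 1.26 in A2B5+ and 0.629, 0.739, 0.969 and 0.672 in GalC+, with GalC+ replicate 3 near the A2B5+ values (-0.63 ± 0.14 SE, adjusted p = 0.00721). Fen1 (-0.50), the nuclease that trims the pieces, and Rpa1 (-0.30), the large subunit of the same complex as Rpa2, fell as well.

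Enzymes that supply DNA building blocks fell in all 4 measured cases, 3 of them by similar amounts. Dut, which keeps uracil out of DNA, read 1.12, 1.52, 1.18 and 1.39 in A2B5+ and 0.627, 0.672, 0.682 and 0.877 in GalC+. Rrm1, the large subunit of ribonucleotide reductase, read 1.19, 1.64, 1.21 and 1.27 in A2B5+ and 0.737, 0.679, 0.677 and 0.809 in GalC+. No values of either gene overlapped (Dut -0.87 ± 0.13 SE, adjusted p = 8.65e-04; Rrm1 -0.86 ± 0.12 SE, adjusted p = 5.22e-04), though the other probe set of Dut showed -0.40. Tk1, the thymidine kinase of dividing cells, fell with all of its 3 probe sets between -0.69 and -0.83. Tyms, which makes thymidylate, fell least (-0.42, adjusted p = 0.0102).

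Of the remaining 5 genes, 3 fell, among them the largest fall of any member. Uhrf1 read 1.37, 1.95, 1.05 and 1.82 in A2B5+ and 0.603, 0.556, 0.463 and 0.947 in GalC+. The spread was wide on both sides, and A2B5+ replicate 3 and GalC+ replicate 4 came close to each other (-1.28 ± 0.24 SE, adjusted p = 0.0028). Top2a, which untangles copied DNA and peaks after S phase, read 1.23, 1.85, 1.2 and 1.75 in A2B5+ and 0.805, 0.597, 0.733 and 0.743 in GalC+. A2B5+ replicates 2 and 4 were high, no arrays overlapped, and both of its probe sets fell (-1.05 ± 0.16 SE, adjusted p = 9.51e-04, the other -1.02). Top2a minus Pcna was -0.83 ± 0.18 SE, at the smallest p possible (exact permutation p = 0.0286), which became 0.0571 after adjustment over the 4 pairs. That adjusted value again depends on the other pairs. E2f1, an activator of replication genes, fell with tight GalC+ values between 0.726 and 0.802 (-0.74 ± 0.10 SE, adjusted p = 3.85e-04). Chaf1b, a subunit of the factor that puts histones on new DNA, read 1.0, 1.14, 1.08 and 0.821 in A2B5+ and 0.924, 1.04, 0.999 and 0.908 in GalC+. The repair gene Brca1 read 0.899, 0.906, 1.09 and 0.908 in A2B5+ and 0.972, 1.03, 1.06 and 1.03 in GalC+. Both genes overlapped between populations and missed the test (Chaf1b -0.06 ± 0.11 SE, 95% interval -0.30 to 0.19; Brca1 0.11 ± 0.09 SE, 95% interval -0.09 to 0.31), and Brca1 was the only member with a log2 ratio above 0.

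Several probe sets were present for 11 members. Of their 27 probe sets, 20 were lower and none higher, and over all 60 probe sets of the members 45 were lower and 0 higher (limma, adjusted over 31042 probe sets, of which 13.2% were lower and 13.5% higher; at an unadjusted p under 0.05 also 0 were higher). The probe set with the largest variance stood for each gene, which tends to take the larger difference where they disagree. In Orc4, Gmnn and Cdc45, 1 probe set stayed near or above 0 while another fell.

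**Figure D5:**
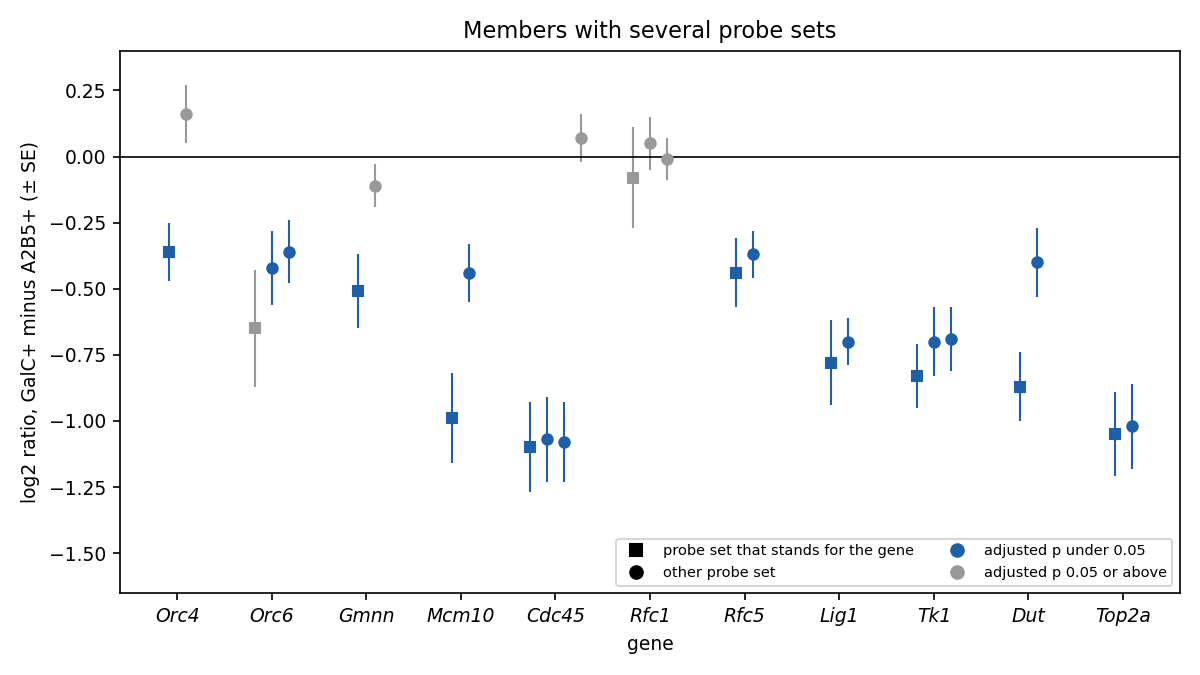
Log2 ratio of GalC+ to A2B5+ (y axis, ± SE) for each of the 27 probe sets of the 11 members with several, squares for the probe set that stands for the gene. The 2 probe sets of Top2a and the 3 of Tk1 lie close together, while those of Orc4 and Cdc45 lie on both sides of 0.

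Replication and S phase genes outside the 48 were counted from lists set by role, also with earlier results of these data known. Of 105 measured, 56 fell and 6 rose, with a median log2 ratio of -0.43. For these and the counts that follow, the shares over all genes were 17.5% lower and 18.2% higher. Chromatin genes coupled to replication fell in 11 of 16 cases, led by Cdca7 (-1.66 ± 0.21 SE), a partner of a remodelling enzyme, and the lamin Lmnb1 (-1.26; mean of its 3 probe sets -0.45). Other replication machinery fell in 16 of 29, with Dscc1 (-0.99), part of an alternative clamp loader, and Atad5 (-0.86; mean of its 3 probe sets -0.61), which unloads the clamp, falling most. The small polymerase subunit Pold4 rose (0.71 ± 0.14 SE, adjusted p = 0.00297), unlike Pold1 and Pold2. Regulators of S phase fell in 15 of 25, led by Mybl2 (-1.23) and E2f7 (-1.21), transcription factors of cycling cells. Tfdp2, a partner of E2F proteins (0.58; mean of its 3 probe sets 0.25), and Rbl2, a pocket protein of resting cells (0.32), rose. Repair genes fell in 9 of 20, with Rad18 (-1.26) and Exo1 (-1.03) in front. Wrn (0.55) and Fanca (0.29) rose, the latter losing its call in 5 of the 8 fits without 1 array (highest adjusted p = 0.113). Of nucleotide genes outside the members 5 of 15 fell, led by Ctps2 (-0.84; mean of its 2 probe sets -0.53) and Dck (-0.75; mean of 3, -0.36), and Ctps1 rose (0.36; mean of 2, 0.25).

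Mitosis genes were set beside the replication genes, and 30 of 31 fell, at a median log2 ratio of -0.99 against -0.62, led by Spc25 (-1.29), a kinetochore protein, and Racgap1 (-1.24), which acts in cytokinesis. Their array medians were 1.19 to 1.64 in A2B5+ and 0.62 to 0.797 in GalC+. The difference between the lists was not tested. Of 12 D cyclins, CDKs and CDK inhibitors, 3 fell and 1 rose, where the shares over all genes were 17.5% lower and 18.2% higher. Those that fell included Ccnd2 (-1.11), a D cyclin of dividing progenitors, and the inhibitor Cdkn1b (-0.45), which kept its call in 1 of the 8 fits without 1 array (highest adjusted p = 0.0943). The gene that rose was the inhibitor Cdkn1c (0.95), and the median was 0.07. Mki67, a mark of cycling cells, was among the mitosis genes counted above that fell (-0.69 ± 0.14 SE, limma adjusted p = 0.00402).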

How the data were processed

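RNA of A2B5+ and GalC+ cells was measured on 1-colour Affymetrix arrays, 4 per population. The signals were made with RMA, per the submitters' processing notes, with no version given. What the authors deposited is a linear ratio, the signal of a probe set over its median among the 8 arrays. This is read from the values and not stated: all 31099 rows have a median between 0.9995 and 1. Folds of dim probe sets are compressed, and these could not be set aside. Here the ratios were log2 transformed with a pseudocount of 0 and not normalised further. After leaving out 57 control probe sets, 31042 remained, of which 20826 had 1 gene symbol, 436 several and 9780 none. The probe set with the largest variance stood for each of 14217 genes. Gene IDs of 20758 probe sets were found in RefSeq (GRCr8), and 0 symbols changed.

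The comparison of GalC+ with A2B5+ used limma 3.58.1 (R 4.3.3, moderated by eBayes). P-values are two-sided and adjusted over all genes by Benjamini-Hochberg, at a threshold of 0.05. The number of arrays limits the precision, and the median SE of a log2 ratio was 0.109. Checked on simulated data for this comparison, over 14217 genes, the fit recovered 45 of 100 genes changed by 0.5 on the log2 scale and 87 of 100 changed by 1, with 10 false calls. No other genes were changed there, whereas 5079 genes were called in the data. The adjusted threshold was therefore stricter in the simulation, and the shares it recovered do not carry over to the data. Exact permutation tests enumerated all 70 assignments of the arrays. The planned pair of Rrm2 and Rrm1 could not be run.

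The replicate numbers were checked for pairing. Deviations from the population means correlated between arrays of the same number at 0.47, 0.12, 0.34 and 0.21 over genes (replicates 1 to 4), and at 0.40, 0.09, 0.30 and 0.17 over all probe sets. The pairing comes from the values only, since the labels do not say that a number marks a shared litter, and the fit has no block. A value with the block is printed where it changes a call. Within a population each replicate is a pool of its own per the labels, and the p-values measure the spread between these pools. The fit treats all arrays as independent, which the labels do not settle for arrays of the same number. No scan date or batch is given. No pair of arrays shared more than 155 identical values of 31099.

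Members given array by array were the 2 with the largest change among those called in each role, every member not called, and the genes compared in pairs. From other lists up to 2 lower and 2 higher genes are named. The members, roles, lists and motif letters were chosen with earlier results of these data known. Also tried were quantile normalization, a replicate block, median centring, the mean of probe sets, a trended and robust prior, the spread of each gene alone, array weights, leaving out genes of the lowest variance, a threshold of 0.01, and leaving out each array.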

Additional observations from a re-analysis of the deposited data

Results flagged for a closer look

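A single array stood far from the other 3 of its population in 6 cases among the 44 members, out of 90 groups of 4 arrays examined (each member and the median over the members, in each population). Chance gives about 1 such case in 20 groups, and 6 in 90 is near that rate. The groups share arrays and are not independent. In 5 of the 6 cases A2B5+ replicate 2 was high, the array that gave the top A2B5+ value in 39 of 44 members. Its ratio was 1.65 for Gmnn, against 1.12 for the next array, 1.84 for Mcm6 against 1.33, and 1.73 for Gins3 against 1.23. For Prim1 it was 1.78 against 1.25, and for E2f1 1.5 against 1.21. The remaining case was Brca1, where A2B5+ replicate 3 read 1.09 and the next array 0.908. The gap for Brca1 was 0.954 of the range of the A2B5+ arrays. Without A2B5+ replicate 2 the calls of Gmnn, Mcm6, Gins3, Prim1 and E2f1 were kept.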

How the results depend on the processing

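The count of lower members was 31 to 37 across the alternative fits at an adjusted p under 0.05 on all 8 arrays and 26 at 0.01, and no member was higher in any of them. The numbers of genes called fell from 5079 to 3137 at 0.01. Leaving out each array gave 30 to 37 lower members, 0 higher, a median log2 ratio of -0.67 to -0.53, 48 to 56 lower genes in the other replication lists and 4071 to 5084 genes called. With the replicate block 37 members were lower, Orc1 and Pole2 being added, and no call was lost. With the spread of each gene alone Orc4, Orc6, Gmnn, Pola2 and Rfc5 lost their calls, and Pcna passed (adjusted p = 0.0322). Pcna also passed with quantile normalization, median centring, the trended prior, array weights and the mean of probe sets (adjusted p 0.0266 to 0.0447). Orc6 lost its call with quantile normalization (0.0613) and the trended prior (0.109), Orc4 lost it with the mean of probe sets (0.424), and Orc1 (0.042) and Gins4 (0.0291) passed with quantile normalization. Of the 35 calls, 28 held in all 8 fits without 1 array. The sign of uncalled members turned when 1 array was left out: Prim2 ranged from -0.05 to 0.02, Rfc1 from -0.20 to 0.12 and Chaf1b from -0.15 to 0.01. For the gene pairs, Orc1 minus Orc2 ranged from -0.05 to 0.16, Orc1 minus Orc4 from -0.14 to 0.10, Cdt1 minus Gmnn from -0.62 to -0.47 and Top2a minus Pcna from -0.93 to -0.73. With the mean of probe sets Orc1 minus Orc4 was -0.33, Cdt1 minus Gmnn -0.75 and Top2a minus Pcna -0.81, each with an adjusted exact permutation p of 0.0381. The unadjusted p of the last 2 was already the smallest possible, 0.0286, and their adjusted p fell because Orc1 minus Orc4 reached it too. With the replicate block these differences were unchanged and Cdt1 minus Gmnn and Top2a minus Pcna had p = 0.125 (exact sign-flip test), the smallest that 4 pairs allow. Signal over background could not be judged, since the ratios carry no brightness.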
